A study of Mus musculus with 6 samples.

Results

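Hepatokines are proteins that the liver secretes and that act on other tissues or on the liver itself. A set of 10 were followed here in primary mouse hepatocytes exposed to IL-1β, the cytokine that Kupffer cells release in inflamed liver. The 10 genes were Ahsg, Fetub, Fgl1, Angptl6, Tsku, Gdf15, Fgf21, Lect2, Enho and Hgf, taken by gene symbol from a table of 23282 genes. The hepatocytes came from livers of C57BL/6N mice (genotype given as C57BL6/N), were seeded for 3 h, and were then kept without treatment (control, 3 samples) or given recombinant IL-1β protein for 24 h (IL-1β, 3 samples). The series title calls the cells metabolically stressed, but no sample label names a stressor. The paper states an IL-1β dose for a related assay, in which hepatocytes received each of several cytokines, but not for these samples. A treatment time is listed for the IL-1β samples only, so how long the controls were kept is not known here. The age of the mice and whether samples came from separate mice are not given in the sources used here. The p-values therefore measure the spread between these samples, which may be technical.

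As background, fetuin-A and fetuin-B (Ahsg, Fetub) are abundant plasma glycoproteins of the cystatin superfamily, and fetuin-A inhibits the insulin receptor and soft tissue calcification. FGF21 and GDF15 are stress hormones of the fasted or injured liver, which signal through FGFR and β-klotho and through the brainstem receptor GFRAL. FGL1 and ANGPTL6 carry fibrinogen-like domains, LECT2 is a chemotactic factor made by hepatocytes, tsukushi (Tsku) is a small leucine-rich protein, and adropin is the product of Enho. HGF, the ligand of the receptor MET, differs from the others in that stellate and endothelial cells, rather than hepatocytes, are its known source in liver.

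RNA was read from the 3′ end of each mRNA (QuantSeq), and the deposited raw read counts totalled 9538741 to 11105408 per library. Levels are given as CPM, read counts scaled to a common library size by TMM, and were not divided by gene length because reads come from the mRNA end. A count of 3 in a library, taken as the floor of detection, corresponded to 0.270 to 0.315 CPM without TMM scaling. The ribosomal RNA precursor Rn45s took 11.7 to 14.2% of counts. Albumin (Alb), the defining hepatocyte transcript, stood at 16200 ± 516 CPM (SD, n = 3) in control and 14100 ± 577 CPM in IL-1β samples. Transcripts listed as markers of other liver cells were present at far lower level than Alb. Which cells they came from was not tested. Markers of stellate cells summed to 20.7 to 25.7 CPM in controls and 22.2 to 28.5 CPM after IL-1β over 12 genes. The most abundant were Dcn, Col3a1 and Col1a2, with control means of 18.4, 0.886 and 1.13 CPM. Endothelial markers, led by Eng, Lyve1 and Cdh5, summed to 88.8 to 96.0 and 85.5 to 90.0 CPM over 11 genes. Macrophage markers, led by Cd68, Ctss and Cd5l, summed to 247 to 279 and 254 to 287 CPM over 13 genes. Most of this came from Cd68, with a control mean of 192 CPM. The Kupffer cell markers among them ranged in control mean from 19.9 CPM for Cd5l over 3.99 for Marco and 1.17 for Clec4f to 0.295 for Vsig4 and 0.0298 for Timd4. Their means after IL-1β were 17.2, 6.34, 0.493, 0.261 and 0.0310 CPM. Cholangiocyte markers summed to 316 to 330 and 237 to 240 CPM over 6 genes, nearly all of it from Sox9 and Spp1, while Krt19, the third of them, had a mean of 0.345 CPM in controls and no count after IL-1β.

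In control hepatocytes the members spanned a wide range of expression. Ahsg had the highest mean, followed in order of CPM by Fgl1, Gdf15, Fetub, Lect2, Tsku, Angptl6, Enho, Hgf and Fgf21. The ranges of Lect2 and Tsku overlapped, as did those of Enho and Hgf. Of the 10, 7 had enough counts for the edgeR quasi-likelihood test, and Fgf21, Enho and Hgf did not. With Benjamini-Hochberg adjustment over the 11657 genes tested, 3 of the 7 had an adjusted p below 0.05. Across all genes tested this share was 13.4%. Ahsg was lower after IL-1β, and Fgl1 and Tsku were higher, against 6.44% of all genes lower and 6.97% higher. The same 3 genes were those whose control and IL-1β samples did not overlap, as was the case in 28.2% of all genes tested. The median log2 fold change of the 7 was 0.18, beside -0.002 over all genes tested. A group this small, chosen with results of these data known, cannot be read against those shares.

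**Figure D1:**
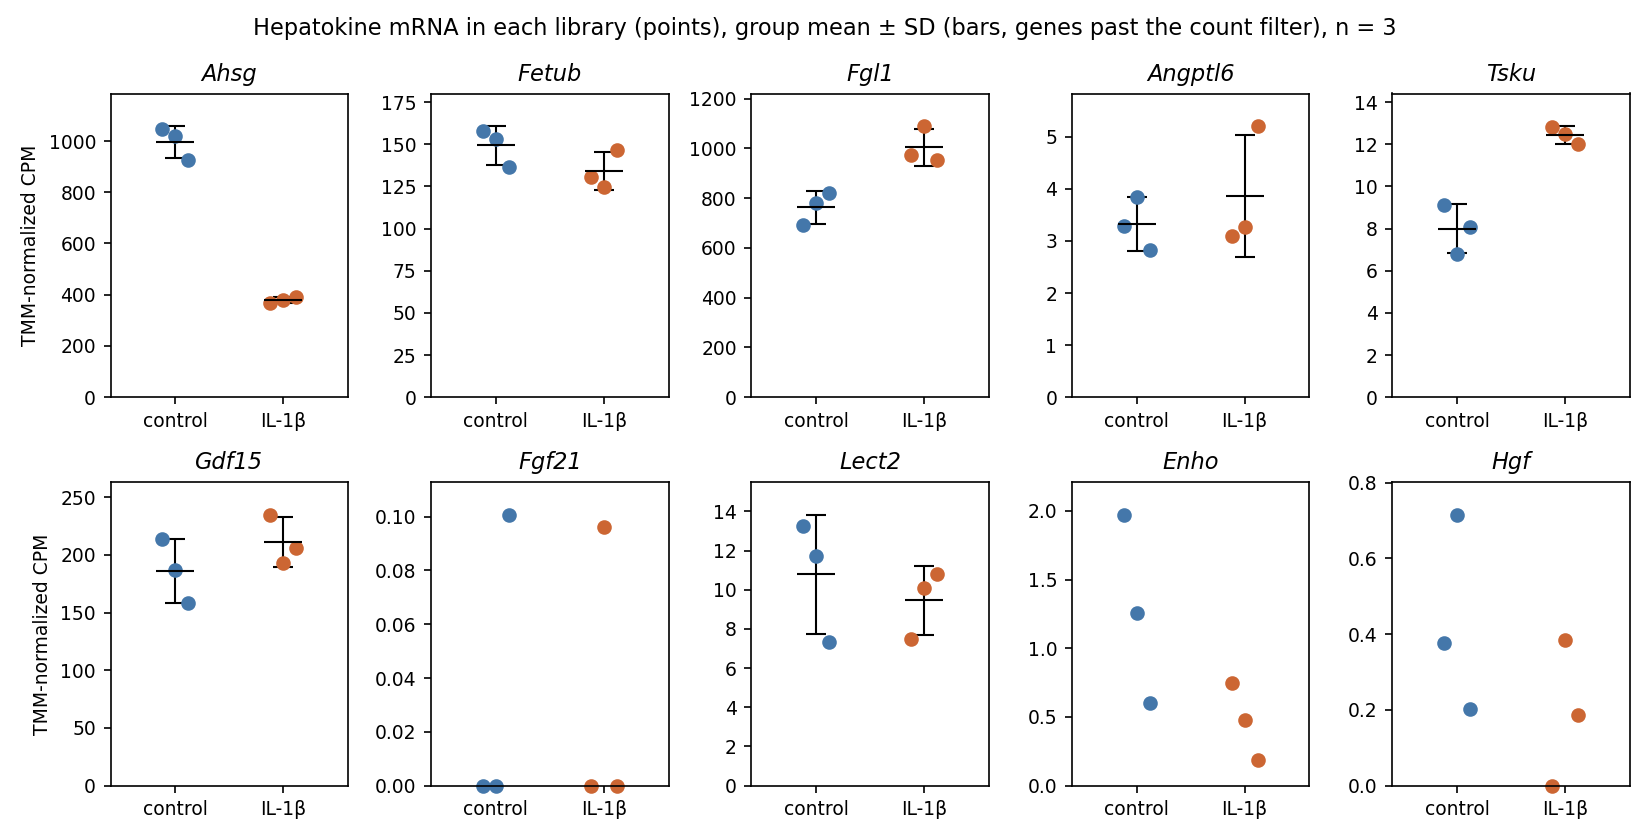
TMM-normalized CPM of each hepatokine mRNA (vertical axes, linear, each from 0) in the 3 control and 3 IL-1β libraries, with points for libraries and bars for the group mean ± SD of the 7 genes past the count filter. The IL-1β points of Ahsg lie below 390 CPM and all its control points above 925 CPM, Fgl1 and Tsku are separated in the other direction, and Fgf21 has 2 points above 0.

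Among the members, the gene of fetuin-A had the largest fold change of those tested. Ahsg (chromosome 16, 22892015 to 22899451, plus strand, GRCm38) stood at 1045, 1018 and 926 CPM in the controls and at 367, 380 and 389 CPM after IL-1β. The IL-1β samples were thus close to each other and far below every control. The means were 996 ± 62.4 CPM and 379 ± 11.3 CPM (SD, n = 3 per group), and the log2 fold change was -1.39 ± 0.064 (standard error, edgeR adjusted p = 1.56e-14). Expression fell by 62.0%, with a 95% confidence interval of -65.3 to -58.3%. By mean CPM, Ahsg ranked at position 95 of the 11657 genes tested in control cells and at position 329 after IL-1β. With any 1 sample left out, its log2 fold change was between -1.45 and -1.36. In these bulk samples, fewer hepatocytes and less RNA per hepatocyte cannot be told apart. The 9 hepatocyte markers together moved from 21560 to 21840 CPM down to 17850 to 18770 CPM. Of the 8 tested, edgeR called 7 lower and 0 higher, beside 6.44% lower and 6.97% higher over all genes tested. DESeq2 called 6 and limma 5. The median log2 fold change was -0.34, and Alb, Apoa1 and Ttr had log2 fold changes of -0.20, -0.33 and -0.35. The Apoa1 samples overlapped between the groups. The lowest of the list was Asgr1, a receptor for desialylated plasma glycoproteins, at -0.55. The part of this shift in the Ahsg value was not tested. An annotated antisense gene, Gm30505, overlaps Ahsg, and whether the counting used strand is not given in the sources used here.

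Fetub, the gene of fetuin-B, follows Ahsg on the same strand after 18930 bases (chromosome 16, 22918382 to 22939768), with no annotated gene wholly between them. Its control samples had 158, 153 and 136 CPM and its IL-1β samples 131, 125 and 147 CPM. These ranges overlapped. The log2 fold change was -0.16 (standard error 0.080, adjusted p = 0.246), and the interval of the change ran from -19.9 to 0.60%, so a fall as large as that of Ahsg lies outside it. The neighbouring fetuin genes were compared directly by the ratio of their raw counts within each library, into which no scaling enters. Ahsg had 6.60, 6.63 and 6.79 times the reads of Fetub in the controls and 2.81, 3.05 and 2.65 times in the IL-1β samples. The log2 ratio differed by -1.24 (IL-1β minus control), and the samples of each group stood apart from the other. A two-sided exact permutation test gave p = 0.1, which is the lowest value reachable with 3 samples against 3. Given the CPM values of both genes, the groups had to stand apart in this ratio, so the test adds no support.

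The stretches before the start sites of both fetuin genes are shown because Ahsg had the largest change and Fetub, its neighbour, gave no call. Sequences are from RefSeq on GRCm38.p6, 5′ to 3′ on the plus strand. For Ahsg all 250 bases before the start are given (chr16:22891765-22892014), and for Fetub the first 200 of them (chr16:22918132-22918331), since the rest lies in an annotated first exon. The Ahsg stretch lies in no annotated exon but in the first intron of longer GENCODE transcripts of the gene. Capitals mark matches on either strand to CAAAGTC, the core of an HNF4 motif, or to TTGCNNAA, a C/EBP motif.
Ahsg: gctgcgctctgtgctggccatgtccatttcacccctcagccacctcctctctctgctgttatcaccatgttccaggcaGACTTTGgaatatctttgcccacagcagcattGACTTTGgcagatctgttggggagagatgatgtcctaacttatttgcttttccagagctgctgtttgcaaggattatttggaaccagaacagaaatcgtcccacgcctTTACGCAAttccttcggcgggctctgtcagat
Fetub: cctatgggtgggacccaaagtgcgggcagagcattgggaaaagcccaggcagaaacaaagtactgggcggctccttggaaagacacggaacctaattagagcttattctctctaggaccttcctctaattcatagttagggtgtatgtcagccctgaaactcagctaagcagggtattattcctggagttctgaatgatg

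The Ahsg stretch held CAAAGTC at 2 positions, with the first base of each match 172 and 140 bases before the start, and TTGCNNAA once, at 32 bases. None of these matches overlapped another. In the Fetub stretch, searched over all 250 bases, neither was found as an exact match. That stretch does hold CAAAGTG and CAAAGTA, which differ from CAAAGTC in the last letter only. Among 32817 promoter stretches of that length, 3.84% held CAAAGTC at least once, 0.0853% at 2 or more positions, and 9.57% held TTGCNNAA. A loose NF-κB motif was found before Fetub and not before Ahsg, and 45.8% of all stretches hold it. It was also found in at least 1 stretch of Hgf, Fgf21, Tsku and Gdf15, and not before Angptl6 or Lect2. Such matches describe letters only and not binding. Hnf4a, Cebpb and Cebpa, which encode factors that bind these motifs, were themselves changed. Hnf4a fell from 87.7 to 42.7 CPM and Cebpb rose from 80.7 to 135 CPM (means, n = 3 per group), with log2 fold changes of -1.04 ± 0.087 and 0.75 ± 0.11 (standard error). Cebpa rose from 51.8 to 65.7 CPM (log2 fold change 0.345, standard error 0.095, edgeR adjusted p = 0.0142). A link between these changes and the fall of Ahsg was not tested.

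Among the fibrinogen-like members, Fgl1 rose. FGL1 is a ligand of the T cell receptor LAG3 and is induced by IL-6 in liver. Fgl1 (chromosome 8, 41191434 to 41215156, minus strand) had 691, 781 and 820 CPM in the controls and 973, 1090 and 952 CPM after IL-1β. Every IL-1β sample was above every control, though by a margin smaller than for Ahsg. The means of 764 ± 66.3 and 1005 ± 74.4 CPM (SD, n = 3 per group) differed by 0.40 ± 0.069 on the log2 scale (standard error, edgeR adjusted p = 0.000176), an increase of 31.6% with a 95% interval of 19.2 to 45.3%. Without 1 sample at a time, the adjusted p was 0.0044 at most. Fgl1 thus moved opposite to Ahsg in the same cells. Fgl1 had 0.661, 0.768 and 0.885 times the reads of Ahsg in the controls, and 2.65, 2.87 and 2.44 times in the IL-1β samples. The group order of the pair by CPM was reversed, with a log2 ratio difference of 1.79 (p = 0.1 by the same exact test, again its lowest value). Since each gene already separated the groups, in opposite directions, this outcome was fixed beforehand and the test adds no support.

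Angptl6, the gene of a circulating angiopoietin-like factor (chromosome 9, 20873809 to 20879710, minus strand), was expressed at 3.29, 3.85 and 2.82 CPM in the controls and 3.10, 3.27 and 5.21 CPM after IL-1β. The groups overlapped, and only IL-1β replicate 3 lay above the controls. The log2 fold change was 0.22 (standard error 0.33, adjusted p = 0.77) and became -0.059 without that sample. The interval of -27.6 to 86.9% rests on 28 to 56 reads per library. The gene A230050P20Rik overlaps it on the opposite strand.

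**Figure D2:**
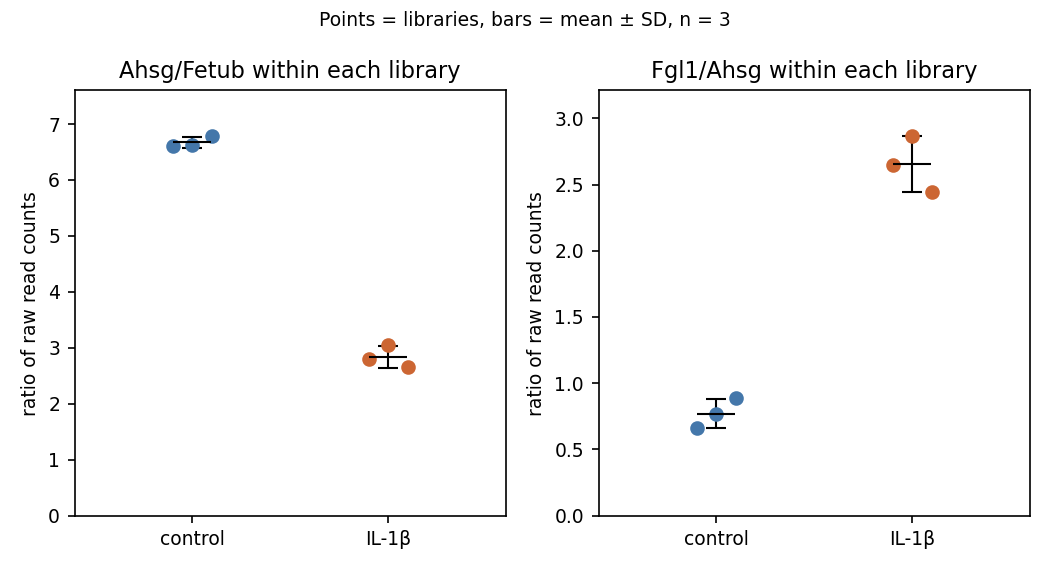
Ratio of raw read counts of Ahsg to Fetub and of Fgl1 to Ahsg (vertical axes, linear, from 0) in each library, with bars for mean ± SD (n = 3 per group). The Ahsg/Fetub ratio lies between 6.60 and 6.79 in controls and between 2.65 and 3.05 after IL-1β, and Fgl1/Ahsg goes from at most 0.885 in controls to at least 2.44 after IL-1β.

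Tsku (chromosome 7, 98350668 to 98361328, minus strand) was low but measurable, at 9.11, 6.80 and 8.06 CPM in the controls and 12.8, 12.5 and 12.0 CPM after IL-1β. All IL-1β samples exceeded all controls. Its means were 7.99 ± 1.16 and 12.4 ± 0.421 CPM (SD, n = 3 per group), and the log2 fold change was 0.64 (standard error 0.19, edgeR adjusted p = 0.0243). This increase of 55.6% had a 95% interval of 18.6 to 104%, from 76 to 130 reads per library. The call rested on the full set of samples. It was lost when control replicate 2 (adjusted p = 0.103), control replicate 3 (0.0556), IL-1β replicate 1 (0.0784), IL-1β replicate 2 (0.0739) or IL-1β replicate 3 (0.0577) was left out, and was kept only without control replicate 1 (0.0115). The log2 fold change stayed between 0.54 and 0.74 in these 6 fits.

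The genes of the stress hormones GDF15 and FGF21 differed widely in level. Gdf15 (chromosome 8, 70629394 to 70631635, minus strand) was well expressed without any treatment, at 214, 187 and 159 CPM, and at 235, 193 and 206 CPM after IL-1β. The groups overlapped. Means were 186 ± 27.6 and 211 ± 21.6 CPM (SD, n = 3 per group), a log2 difference of 0.18 ± 0.090 (standard error, adjusted p = 0.229), and the interval of the change ran from -0.34 to 28.9%. Control replicate 1, the highest control, decided this call. Without it the log2 fold change was 0.29 with an adjusted p of 0.00933, and over the 6 fits that left out a sample it ranged from 0.075 to 0.29.

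Fgf21 (chromosome 7, 45613890 to 45615490, minus strand) was not detectable at this depth. It had 0, 0 and 1 reads in the controls and 0, 1 and 0 reads in the IL-1β samples, all below the floor of 3 counts, so no fold change is given. The 250 bases before its start (chr7:45615491-45615740, RefSeq, GRCm38.p6, written 5′ to 3′ on the minus strand) are shown with a match to TGATGNAA, a motif of the stress factors ATF4 and CHOP, in capitals.
Fgf21: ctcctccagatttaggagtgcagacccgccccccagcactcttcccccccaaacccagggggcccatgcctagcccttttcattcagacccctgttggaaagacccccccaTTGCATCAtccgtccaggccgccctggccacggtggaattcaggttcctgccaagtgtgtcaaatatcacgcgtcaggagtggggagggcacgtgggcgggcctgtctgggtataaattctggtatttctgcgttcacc

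The match, read on the other strand, begins 139 bases before the start, and 3.45% of the 32817 promoter stretches hold this motif. CAAAGTC and TTGCNNAA were not found there. ACGTG, the core of the HIF motif, was found at 50 and 49 bases before the start, on opposite strands of 1 overlapping site, and occurs in 16.6% of stretches. A promoter was listed for 8 of the 10 members, and apart from Ahsg and Fgf21 none of these held CAAAGTC, TTGCNNAA or TGATGNAA. Factors known to act on Fgf21 were measured in the same libraries. Creb3l3, the liver factor that activates Fgf21 together with PPARα, fell from 36.6 ± 7.96 to 3.94 ± 1.28 CPM (log2 fold change -3.23, standard error 0.20). Atf4 rose by a log2 fold change of 0.34, while Ppara at 0.20 and Ddit3, the gene of CHOP, at 0.069 had adjusted p of 0.417 and 0.65. A link between these values and the level of Fgf21, undetectable in both groups, was not tested.

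Lect2, Enho and Hgf gave no call. Lect2 (chromosome 13, 56542460 to 56548538, minus strand) had 13.3, 11.7 and 7.36 CPM in the controls and 7.48, 10.1 and 10.8 CPM after IL-1β. Its groups overlapped over most of their range, and its log2 fold change was -0.19 (standard error 0.22, adjusted p = 0.681), with an interval of -35.8 to 19.9%. Enho (chromosome 4, 41638144 to 41640302, minus strand) had 21, 14 and 6 reads in the controls and 7, 5 and 2 reads in the IL-1β samples. In reads and in CPM the lowest control lay just under the highest IL-1β sample. Without the count filter its log2 fold change was -1.44 (standard error 0.75), with an adjusted p of 0.278 and an interval of -86.7 to 2.10%. Dnaic1 and the antisense gene Gm12406 overlap Enho on the opposite strand.

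Hgf (chromosome 5, 16553495 to 16619439, plus strand) had 4, 8 and 2 reads in the controls and 0, 4 and 2 reads after IL-1β. The groups overlapped around the floor of 3 counts. Without the filter its log2 fold change was -1.12 (standard error 1.25, adjusted p = 0.716). The summed stellate and endothelial markers, the cells known to make HGF, overlapped between the groups in their ranges given above, but single endothelial markers differed. Of 10 tested, 1 was higher, Lyve1 at a log2 fold change of 0.45, and 2 were lower. The sinusoidal endothelial lectin gene Clec4g fell from 5.80 to 0.765 CPM (log2 fold change -2.87, edgeR adjusted p = 1.90e-05) and the VEGF receptor gene Kdr from 4.55 to 1.62 CPM (-1.49, adjusted p = 0.00511). By edgeR, DESeq2 and limma alike, 0 of 2 stellate and 0 of 10 macrophage markers were called. At an unadjusted edgeR p below 0.05 there were 0 and 3. These 3, Marco, C1qa and Cd74, were all higher after IL-1β. Of the 10 macrophage markers, 7 had a log2 fold change above 0, and their median was 0.38. Of 2 cholangiocyte markers tested, edgeR called 1, Spp1, which was lower at -1.20. The other, Sox9, was at 0.21 (edgeR adjusted p = 0.0519), and DESeq2 and limma called both. The part of other cells in the few Hgf reads was not tested. The 3′ end of Hgf is shared in part with an annotated gene on the same strand, Gm43489. Of the 75-nt stretches in the last 500 nt of Hgf transcripts, 16.9% also occur there, whereas no such stretch of another member occurs in a second gene. Met, the receptor of HGF, was in contrast well expressed, at 114 ± 5.34 CPM in the controls and 105 ± 5.93 CPM after IL-1β (log2 fold change -0.12, adjusted p = 0.408).

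**Figure D3:**
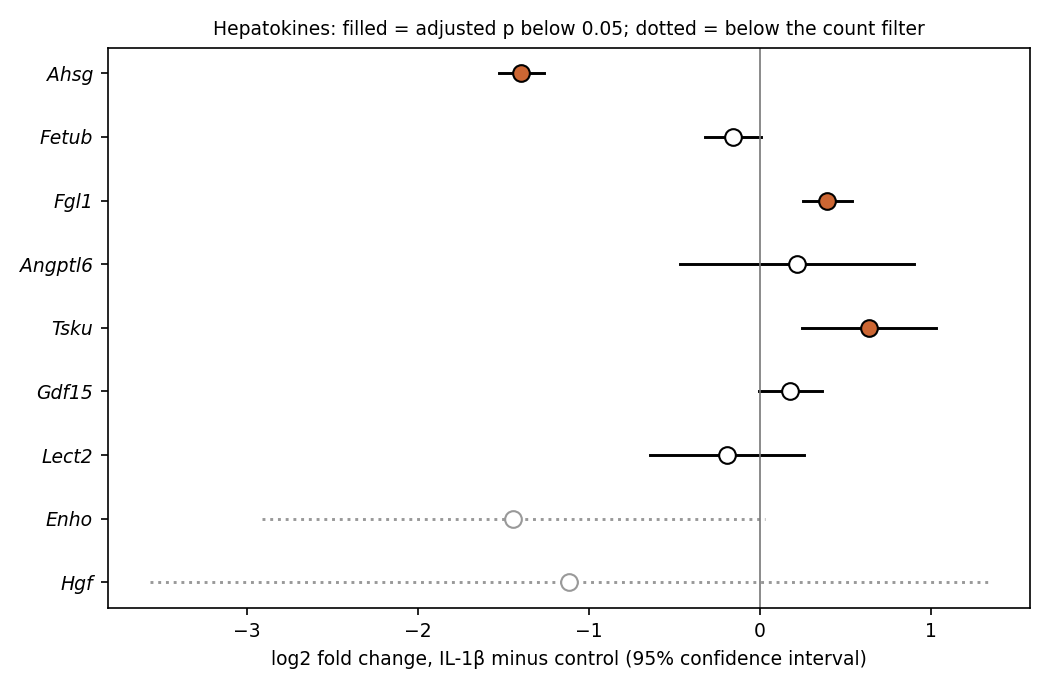
Log2 fold change of each hepatokine (horizontal axis, IL-1β minus control) with its 95% confidence interval, filled where the adjusted p was below 0.05 and dotted for Enho and Hgf, which were fitted only without the count filter. The interval of Ahsg, -1.53 to -1.26, lies apart from those of the other tested members, and Fgf21 is left out.

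The genes around these members were then counted. Of 10 receptor and co-receptor genes, 6 were tested, with 0 higher and 1 lower and a median log2 fold change of -0.22. The 1 lower gene was Fgfr4, known as the main FGF receptor of hepatocytes. It had 63, 53 and 52 reads in the controls and 14, 16 and 12 after IL-1β (log2 fold change -1.93 ± 0.35, standard error, adjusted p = 0.000292). In these controls its mean of 5.30 CPM was below those of Fgfr1 (9.57), Fgfr3 (6.98) and Fgfr2 (5.85). Fgfr1, Fgfr2 and Fgfr3 had log2 fold changes of -0.33, 0.50 and -0.43, with edgeR adjusted p of 0.389, 0.232 and 0.318. The co-receptor of FGF21, Klb, had 3, 18 and 6 reads in the controls and 6, 6 and 1 reads after IL-1β. Gfral and Ret, the receptor pair of GDF15, had no read in any library. Insr, the insulin receptor that fetuin-A inhibits, stood at 0.014 on that scale (adjusted p = 0.957).

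Proteases and inhibitors that control the activation of pro-HGF gave 1 higher and 2 lower genes of 7 tested, with a median of -0.25. F12 and Hpn, which encode the activating proteases coagulation factor XII and hepsin, fell by 0.28 and 0.34 on the log2 scale (adjusted p = 0.0071 and 0.0414). Spint2, an inhibitor of such proteases, rose by 0.66 (adjusted p = 0.0187), although control replicate 1, at 23.7 CPM, overlapped the IL-1β samples at 23.2 to 27.1 CPM. Relatives of the members by protein family gave 1 higher and 3 lower of 9 tested, with a median of -0.05. Hrg, a cystatin superfamily relative of the fetuins, fell from 53.2 ± 5.91 to 33.2 ± 3.66 CPM (log2 fold change -0.68, adjusted p = 6.35e-05), and Kng1 by 0.23, which shares much sequence with Kng2 and may share reads with it. Plg, the gene of plasminogen, was the third, at -0.24. The fibrinogen chain Fga rose by 0.43, while the other chains had values of -0.036 for Fgb and 0.057 for Fgg.

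Other genes known to encode hepatokines included both higher and lower genes. Of 13 tested, 4 were higher and 6 lower, with a median log2 fold change of -0.22. Igfbp1, which binds insulin-like growth factors, went from 257 ± 32.4 to 61.3 ± 4.21 CPM (log2 fold change -2.07), Sepp1, the selenium carrier selenoprotein P, from 1567 ± 87.2 to 629 ± 17.4 CPM (-1.32), and the retinol carrier Rbp4 from 1074 ± 19.3 to 554 ± 12.3 CPM (-0.95). Their adjusted p-values were 5.05e-15, 1.70e-14 and 4.07e-12, and in each the 3 IL-1β samples lay below the 3 controls. Igf1 and Dpp4 were also lower. Among the higher genes were Manf, an ER stress-induced secreted factor, at 0.81, Smoc1 at 0.58, and Angptl4, an inhibitor of lipoprotein lipase, at 0.49. Among known regulators of these genes, 6 of 17 were higher and 3 lower, with a median of -0.04. Beside Creb3l3 and Hnf4a, the third lower one was Mlxipl at -0.56, and Stat3, which carries the IL-6 signal to Fgl1, rose by 0.37. All these lists were chosen with earlier results of these data known.

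**Figure D4:**
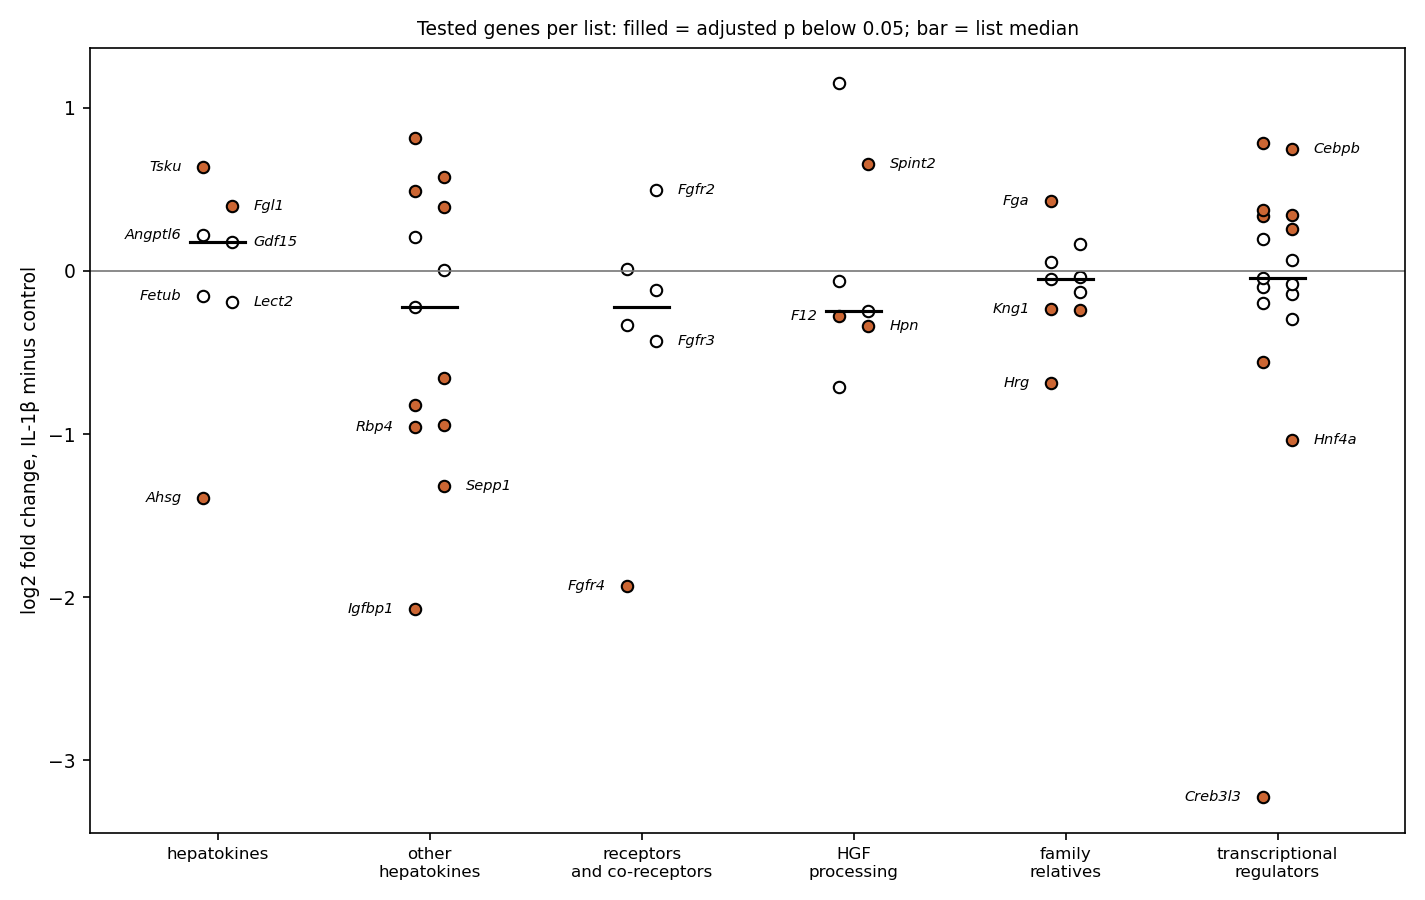
Log2 fold change (vertical axis, IL-1β minus control) of every tested gene in the hepatokine set and in the 5 related lists, filled where the adjusted p was below 0.05, with a bar at each list's median. Ahsg, Sepp1, Rbp4 and Igfbp1 are the labelled secreted-factor genes near or below -1, and Creb3l3 is the lowest point at -3.23.

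Finally, the genes most like the 3 called members were sought by Pearson's r of log2(CPM + 1) over all 6 samples, among genes with a mean of at least 10 CPM. Such r values follow the difference between the groups as well as the spread within them and are given as a description. Ahsg was followed most closely by Igfbp1 (r = 0.9991) and Rbp4 (r = 0.9987), both of them secreted factors from the list above. Fgl1 was followed by Prkci (0.9971), which encodes an atypical protein kinase C and rose by 0.33, and by Gm7334 (0.9938). Tsku was followed by Rps19-ps3 (0.9935) and by G3bp1 (0.9914), a stress granule protein gene with a log2 fold change of 0.23. Rps19-ps3 is a ribosomal protein pseudogene whose reads may come from its parent gene. Its own log2 fold change of 0.19 was not called (edgeR adjusted p = 0.25).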

How the data were processed

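Primary hepatocyte RNA was sequenced with the QuantSeq 3′ kit as single-end 75-nt reads and, per the submitters' processing notes, aligned with Bowtie2 to mm10 (GRCm38) and normalized with edgeR. The counting tool is not given in the sources used here. The authors deposited 1 table with raw counts per gene for all 6 samples, which were used here. Its other columns, the authors' log2 normalized values, group averages, fold change and p-value, were not used.

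Counts were filtered with filterByExpr, scaled by TMM and compared by the quasi-likelihood test of edgeR 4.0.16 (R 4.3.3), with Benjamini-Hochberg adjustment over 11657 genes and a threshold of 0.05. The standard error is the log2 fold change divided by the square root of F. The test was tested on simulated data. Depth was 9538741 to 11105408 counts per library, and intervals and floors cover these samples and counting error only. Exact permutation tests used scipy 1.17.1. Alternatives were DESeq2 1.42.0, limma 3.58.1 on log2(CPM + 1), scaling by upper quartile or by total counts, leaving out the filter, requiring 10 counts in all samples, the replicate number as a block and each sample left out.

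The members, the gene lists and the motifs were chosen with earlier results of these data known. Named were all members, up to 3 genes per related list with the smallest adjusted p, the 3 most abundant markers per cell type, Hnf4a, and the 2 genes most like each of 3 called members. Other genes were named after their values were seen. Some genes counted in the lists are not reported here by name. Replicate samples differed by more than sampling noise (chi-square per degree of freedom 4.16 to 10.0). Gene positions are those of the deposited table. Overlaps, 75-nt matches and neighbours come from GENCODE vM21 (GRCm38), and promoters from RefSeq.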

Additional observations from a re-analysis of the deposited data

How the results depend on the processing

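Ahsg and Fgl1 were called in the same direction under all 7 alternatives that used every sample and with each sample left out in turn. Their log2 fold changes with every sample were -1.45 to -1.39 and 0.34 to 0.40, and with a sample left out -1.45 to -1.36 and 0.33 to 0.45. Tsku kept its call in the 7 (adjusted p 0.0195 to 0.0397) and lost it in 5 of the 6 fits without a sample, where its log2 fold change was 0.54 to 0.74. Gdf15 gained a call without control replicate 1. Angptl6 ranged from -0.059 to 0.36 with a sample left out, and the negative value was without IL-1β replicate 3. The number of members called was 3 under every alternative with all samples and 2 to 4 with a sample left out. Over all genes the count of 1563 was 1488 to 1728 with all samples and 1131 to 1596 with a sample left out, where fewer samples entered the fit. Among the related lists 27 genes were called, 26 to 29 and 20 to 25 in these fits. Scaling by total counts lowered the share of higher genes among all calls from 52.0 to 39.6% and moved the median of all genes to -0.055, without a change in the calls of the members. Same-numbered control and IL-1β samples did not deviate together (correlations 0.075, 0.027 and -0.005), and not every sample correlated best with its own number. Correlations from 3 samples per group cannot tell whether same-numbered samples shared a preparation. With the replicate block, 1671 genes and the same 3 members were called. Enho, with a fit in 4 of the left-out sets, had adjusted p of 0.124 to 0.465. Depth limits Fgf21 and Hgf, which stood near or below the floor of 3 counts, and Enho, with 2 to 21 reads per library.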
